A study of Mus musculus with 33 samples.

Results

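Kupffer cells, the resident macrophages of the liver, were taken from the 8 liver samples of a mouse single-cell RNA-seq series by a rule on 5 genes. A cell was kept if it had at least 500 gene UMIs (unique molecular identifiers, which count captured RNA molecules), 200 or more genes and no more than 15% of UMIs from mitochondrial genes. A kept cell was called a Kupffer cell if it had at least 1 UMI for at least 3 of Clec4f, Cd5l, Vsig4, Timd4 and Marco. The rule took 1013 of 11778 kept liver cells (8.60%), out of 81552 kept cells in the 33 samples of the series. These 5 genes chose the cells, so their levels are given as a description with no test.

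The series used SAMENT, in which injected tumour cells carry an enzyme that puts biotin on neighbouring cells. Tissues were labelled overnight, dissociated with collagenase and sorted on biotin. The liver groups were 4 biotin positive and 4 biotin negative samples from mice that had received an intracardiac injection, which sends tumour cells into the arterial blood, and all comparator samples shared that injection. The sources used here do not give the strain, genotype, sex or age of the mice, the tumour line or the animal behind each sample. The 8 intracardiac samples with the same replicate number carry 8 different CellPlex tags and share no cell barcode. They are treated here as 1 multiplexed pool, which no label states.

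Kupffer cells sit inside the liver sinusoids, where they catch particles, bacteria and worn red blood cells from passing blood. Clec4f and Vsig4 are lectin and complement receptors at their surface, Timd4 binds phosphatidylserine on dying cells, Marco is a scavenger receptor, and Cd5l is a secreted protein driven by LXR alpha, the nuclear receptor encoded by Nr1h3. Embryo-derived Kupffer cells carry Timd4, and cells that later arise from blood monocytes gain Clec4f before Timd4. On mouse build GRCm38 with GENCODE M21 annotation, the rule genes lie at chr6:83644542-83656187 (Clec4f, minus strand), chr3:87357881-87371073 (Cd5l, plus strand), chrX:96247203-96293438 (Vsig4, minus strand), chr11:46810800-46844332 (Timd4, plus strand) and chr1:120474538-120505024 (Marco, minus strand).

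Kept cells per liver sample ranged from 94 to 3367, and total UMIs from 497940 to 20040210. Kupffer cells numbered 77, 806 and 57 in biotin positive replicates 1, 2 and 3, and 49 and 24 in biotin negative replicates 2 and 3. Positive replicate 4 and negative replicates 1 and 4 had 0. Positive replicate 2 alone held 79.6% of all Kupffer cells. Median UMIs per Kupffer cell were 2831, 6591.5 and 2656 in positive replicates 1, 2 and 3, and 5280 and 3239.5 in negative replicates 2 and 3, so the sample with most of the cells was also the deepest.

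The rule genes chose the cells, so how often they were found is a description and no check of the label. Clec4f had a UMI in 91.7% to 100% of Kupffer cells of the 5 samples, and Cd5l in 89.8% to 100%. Vsig4 was found in 83.3% to 100% of them in 4 samples and in 51.0% in negative replicate 2. Timd4 was found less often, at 28.6% and 45.8% in negative replicates 2 and 3 and at 63.6%, 76.4% and 42.1% in positive replicates 1, 2 and 3. Marco was found in 85.7% and 45.8% of the negative and in 59.7%, 93.8% and 29.8% of the positive cells. With every cell thinned to 1000 UMIs, Timd4 ranged from 12.8% in negative replicate 2 to 31.0% in positive replicate 2. Thinned Marco stood at 79.3% in positive replicate 2 and at 27.3% to 42.6% elsewhere. Among the other liver cells, thinned Marco was at 0.535% to 9.71%.

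The 5 rule genes were found in far more cells of replicate number 2 than of the other numbers, in every tissue. At least 1 of them had a UMI in 40.2% to 79.3% of kept cells in the 6 replicate 2 samples outside liver, against 0% to 16.6% in the samples of other numbers other than positive lung. The positive lung samples of other numbers went up to 35.7%. In lymphocytes, which should lack these genes, 30.1% to 50% of cells had a UMI for at least 1 of them in the 6 samples (median 1890.5 to 3381 UMIs per lymphocyte), and 30.4% and 40.0% in negative and positive liver replicate 2. In the samples of other numbers the share was 0% to 13.8% apart from positive lung, with median depths of 1764 to 5366.5 UMIs. Positive lung stood at 11.9%, 29.0% and 0% in replicates 1, 3 and 4, and at 31.25% in replicate 2, so replicate 3 was close to it. Some replicate 2 shares rest on few lymphocytes, 16 each in positive brain (50%) and positive lung and 15 in positive liver (40.0%). A single UMI of a rule gene in a replicate 2 cell was therefore at the level found in cells that should lack it.

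**Figure D1:**
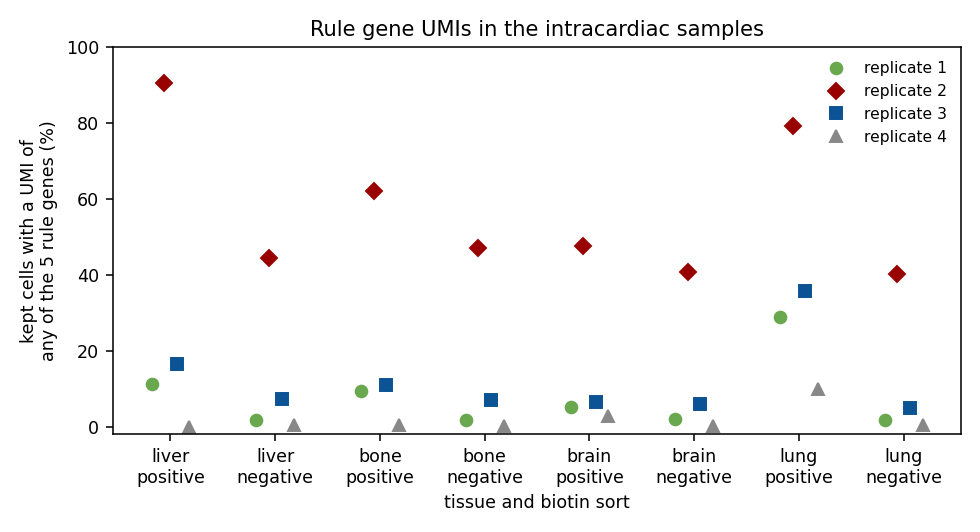
Percent of kept cells with at least 1 UMI of any of the 5 rule genes (y axis) in each of the 32 intracardiac samples, by tissue and biotin sort (x axis), with a symbol for each replicate number. The 8 replicate 2 samples lie between 40.2% and 90.7%, above every sample of the other numbers.

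Of the 49 cells that met the rule in negative replicate 2, 33 had exactly 3 of the 5 genes, with a median of 3 rule gene UMIs per cell. In these 33 cells C1qa, a complement gene that Kupffer cells express strongly, was at 306 counts per 1000000 UMIs (CPM), and S100a9, a neutrophil gene, at 29664. In cells with exactly 3 rule genes of the other 4 samples, C1qa was at 2008 to 4101 CPM. The negative replicate 2 cells with 4 or 5 rule genes, 16 in all, had C1qa at 8322 and 5776. The data therefore go against the label for those 33 cells, and the counts that rest on negative replicate 2 are followed by those without it and with at least 4 rule genes, a rule that 878 cells met. Just outside the threshold, cells with exactly 2 rule genes had C1qa at 254 CPM in negative replicate 2 (199 cells), 2089 in negative replicate 3 (12 cells), and 2287, 764 and 247 in positive replicates 1, 2 and 3 (11, 55 and 15 cells).

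**Figure D2:**
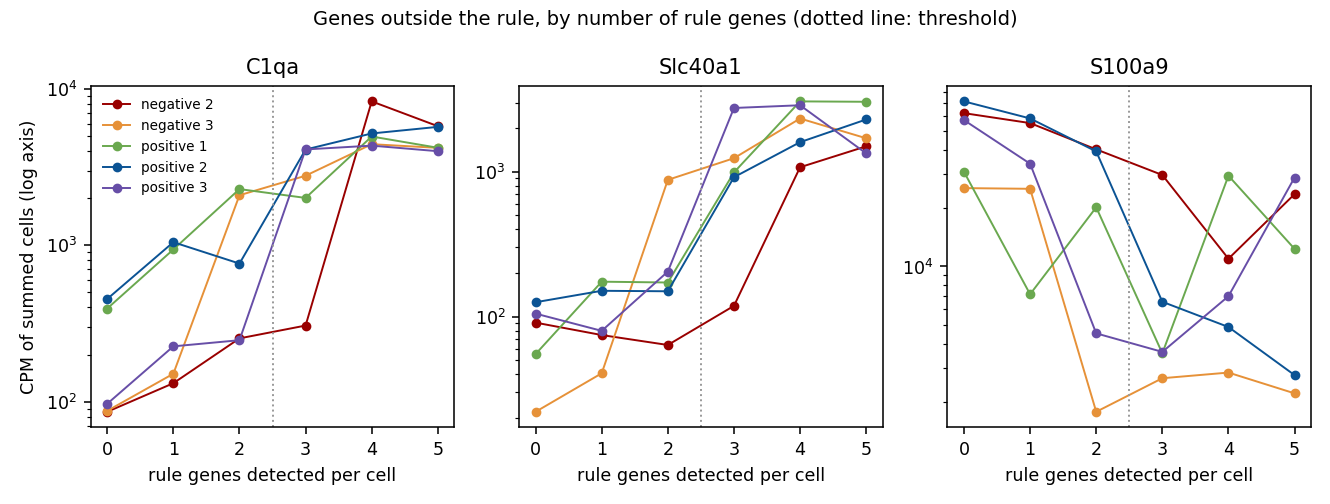
CPM of C1qa, Slc40a1 and S100a9 (log y axis) in the summed kept cells of 5 liver samples, by the number of rule genes with a UMI (x axis); the dotted line is the threshold of 3. C1qa stands at 2008 CPM or more from 3 genes on in 4 samples, and in negative replicate 2 only from 4 genes on.

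The sample tags and barcodes were checked too. The leading CellPlex tag was that of the sample in 77 of 77, 806 of 806 and 57 of 57 Kupffer cells of positive replicates 1, 2 and 3, and in 48 of 49 and 24 of 24 of negative replicates 2 and 3. Samples of the same replicate number shared 0 cell barcodes in 112 pairs, and samples of different numbers shared 325 in 384 pairs. Outside liver, 344 cells of the replicate 2 samples met the rule (11 to 173 per sample), of which 46 had at least 4 rule genes.

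Kupffer cells were a larger part of the biotin positive than of the biotin negative liver cells in 3 of the 4 replicate numbers and were absent from both in the fourth, but the difference did not pass the test. The share was 6.31% (95% Wilson interval 5.08% to 7.81%), 77.8% (75.2% to 80.2%) and 7.67% (5.97% to 9.81%) in positive replicates 1, 2 and 3. In positive replicate 4 it was 0 of 94 cells, which allows a share of up to 3.19%. In negative replicates 2 and 3 it was 1.97% (1.49% to 2.59%) and 1.54% (1.04% to 2.28%), and in negative replicates 1 and 4 it was 0 of 3367 and 0 of 1268 cells, which allow up to 0.0891% and 0.237%. Each of the 3 positive samples with Kupffer cells stood above all 4 negative samples, and positive replicate 2 stood far above the others.

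The mean share was 22.9% ± 36.7 (SD, n = 4) in positive and 0.877% ± 1.03 (SD, n = 4) in negative samples. The difference of 22.1 percentage points gave p = 0.143 in a two-sided exact permutation test, whose smallest possible p with 4 against 4 samples is 0.0286. Without positive replicate 2 the difference was 3.78 points (exact permutation p = 0.286), and without both replicate 2 samples it was 4.15 points (p = 0.40). With at least 4 rule genes the shares were 4.50%, 73.6% and 4.31% in positive replicates 1, 2 and 3 and 0.642% and 0.771% in negative replicates 2 and 3. At 1000 UMIs per cell they were 4.06%, 72.0% and 7.17%, and 0.580% and 1.06%. The order of positive over negative samples was thus the same with the stricter rule and at equal depth. It was not with the looser rule of at least 2 genes, where negative replicate 2 stood at 9.95%, above positive replicates 1 and 3 at 7.21% and 9.69% (difference 21.9 points, exact permutation p = 0.371). The sort was on biotin, so a share of sorted cells is not a share of the liver's cells.

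**Figure D3:**
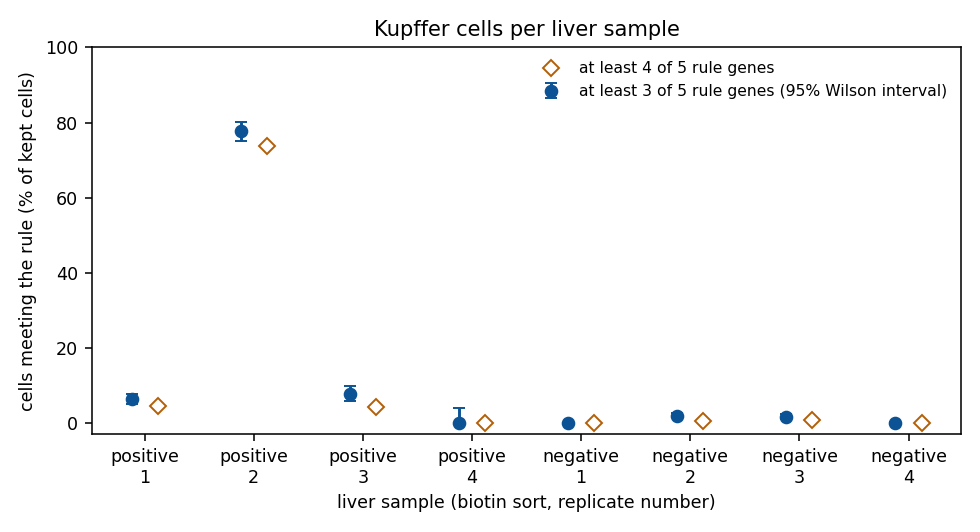
Cells meeting the Kupffer rule as a percent of kept cells (y axis) in the 8 liver samples (x axis); filled circles are the rule of at least 3 genes with 95% Wilson intervals, open diamonds at least 4 genes. Positive replicate 2 stands at 77.8%, positive replicates 1 and 3 at 6.31% and 7.67%, and no negative sample is above 1.97%.

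Across the 5 samples with Kupffer cells, 20 genes were ranked by the ratio of their CPM in Kupffer cells to that in all other kept liver cells (floored at 3 counts per sample), as a description with no test, since the cells were chosen on the same counts. The list opened with C6, a component of the membrane attack complex, at a median ratio of 313, and Cxcl13, a chemokine that draws B cells, at 191. Slc16a9 (a carnitine transporter), Paqr9, Fcna (ficolin A, a lectin that starts the complement cascade), Fabp7 (a fatty acid binding protein) and Cd163 (the haemoglobin scavenger receptor) followed at median ratios of 120 to 43.9. Dmpk, Nr1h3, Il18bp (which neutralises IL-18), Apoc1 (an apolipoprotein), Slc40a1 (ferroportin, the iron exporter), Ttc39c, Folr2 (a folate receptor) and Igf1 stood between 29.2 and 22.4. The list closed with C4b, Vcam1, Lilra5, Sema6d and C1qc, the last at 14.9. None of the 20 is a rule gene.

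RNA of genes listed as markers of other cell types was present in these cells. The 8 neutrophil markers summed to 70483 CPM in Kupffer cells of negative replicate 2, 7102 in negative replicate 3, and 34330, 7088 and 25836 in positive replicates 1, 2 and 3, with no marker at 0 in any of them. The other liver cells of these samples had 57565 to 133698. The 6 monocyte markers summed to 979 to 2788 CPM, led by Plac8, with none at 0. The 10 hepatocyte markers summed to 264 to 935, with 0 to 6 of them at 0. Trf (transferrin), also in the iron list used below, made up 235 to 864 of that. The sum was above that of the other liver cells in every sample but positive replicate 1 (653 against 1304). It is therefore mostly Trf, and the source of the Trf RNA was not tested. The 10 sinusoidal endothelial markers summed to 132 to 612, highest in negative replicate 2, where the defining marker Clec4g led at 163. Erythroid markers summed to 1592 in negative replicate 2, 818 in positive replicate 2 and at most 46.9 in the other 3. The part of this RNA in the results below was not tested.

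Within Kupffer cells, no gene passed the test between biotin positive and biotin negative liver in the reported fit. With the replicate number in the fit 49 passed, and with no filter on low counts 189 passed without that number. This comparison asks whether cells near tumour cells differ from those farther away. Positive replicates 1 to 3 were set against negative replicates 2 and 3, the samples with at least 10 Kupffer cells, on UMI counts summed per sample. The edgeR quasi-likelihood test with Benjamini-Hochberg adjustment called 0 of 5006 genes (0%) at an adjusted p under 0.05, with 420 at an unadjusted p under 0.05. DESeq2 also called 0, with 259 unadjusted. With the replicate number as a block, although no label says that the number pairs samples, the edgeR test called 49 genes, 4 higher and 45 lower in positive cells. Positive replicate 1 had no negative partner in that fit. The difference therefore rested on replicates 2 and 3 alone, with little left to estimate the spread. The 49 genes held 4 of 13 chemokines and 3 of 7 cell cycle genes, all lower, beside 45 lower of all 5006 genes. Other Kupffer cell and complement genes each had 1 higher, of 20 and 14. LXR and lipid, MHC class II, Fc gamma receptor and immediate early and heat shock genes each had 1 lower, of 13, 9, 6 and 14. Leaving out negative replicate 2 gave 10 calls, all lower in positive cells, and leaving out negative replicate 3 gave 78 calls, 77 of them lower. Without the replicate 2 samples there were 41 calls, 16 higher and 25 lower. Each of these 3 fits leaves 1 negative sample, whose spread is taken from the positive samples. Over all genes, 17.8% were higher and 8.65% lower in positive cells with no overlap between the sorts.

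The levels of 3 genes, chosen after their values were seen, are given next, and none of them passed the test as described above. Slc40a1 stood at 408 and 1565 CPM in negative replicates 2 and 3 and at 2449.9, 2156 and 2441 in positive replicates 1, 2 and 3, with no overlap. Its log2 difference, positive minus negative, was 1.17 (SE 0.52, edgeR adjusted p = 0.590). C1qa likewise did not overlap, at 1752 and 3404 CPM against 3792, 5599 and 4183 (log2 difference 0.70, SE 0.39, adjusted p = 0.655). Ccl2, a chemokine that draws monocytes, stood at 1366 and 163 CPM in negative replicates 2 and 3 and at 17.6, 107 and 42.6 in positive replicates 1, 2 and 3 (log2 difference -3.84, SE 0.84, adjusted p = 0.516). For all 3 genes the level farthest from the positive samples was that of negative replicate 2. With at least 4 rule genes the difference of Slc40a1 was 0.60 (SE 0.33) and that of C1qa turned to -0.17 (SE 0.32), while Ccl2 was too low there to be tested. With at least 2 UMIs for each of 3 rule genes Ccl2 was at -1.07 (SE 0.77, edgeR adjusted p = 0.9995). Without negative replicate 2 the differences of Slc40a1, C1qa and Ccl2 were 0.57, 0.39 and -1.36 (edgeR adjusted p = 0.849, 0.899 and 0.849). Ccl2 passed with the replicate block (-3.25, SE 0.49, edgeR adjusted p = 0.000676), with no filter on low counts (-3.71, adjusted p = 1.9e-14), without negative replicate 3 (-4.59, adjusted p = 0.00346) and without the replicate 2 samples (-2.51, adjusted p = 0.0112).

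The medians of many gene lists between the sorts moved toward 0 with the stricter rule, but not those of all lists. The median log2 difference was -0.01 over all genes. Over the 20 other Kupffer cell genes it was 1.06 and became -0.04 with at least 4 rule genes. Iron and haem genes went from 0.91 to 0.19, complement genes from 0.68 to -0.13, chemokines from -0.94 to -0.11 and cell cycle genes from -1.38 to -0.12. Fewer genes passed the low-count filter there, with chemokines tested falling from 13 to 9 and cell cycle genes from 7 to 2. Their medians therefore cover different genes. Cytokine and feedback genes stayed near -0.46 (-0.44), while Toll-like receptor (-0.28 to -0.37) and interferon-stimulated genes (0.32 to 0.44) moved away from 0. No member of any list was called under either of these rules, which were fitted without the block. Monocyte markers stood at a median of -2.53 and summed to 2788 and 1605 CPM in the negative against 979 to 1470 in the positive samples.

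The remaining comparisons set Kupffer cells beside 4 other mononuclear phagocytes, each taken by at least 3 of 5 genes of its own. Liver monocytes (Ly6c2, Ccr2, Vcan, F13a1, Ms4a4c) came from the same 5 samples, with 462, 509, 247, 16 and 95 cells in the order negative 2, negative 3, positive 1, positive 2 and positive 3, which is kept below. The other 3 kinds came from biotin positive samples and were set against Kupffer cells of positive replicates 1, 2 and 3. They were bone macrophages (Vcam1, C1qa, Axl, Mertk, Adgre1; 222 and 331 cells in bone positive replicates 1 and 2), brain border-associated macrophages (Lyve1, Mrc1, Cd163, F13a1, Cbr2; 170, 474, 23 and 57 cells in replicates 1 to 4) and lung alveolar macrophages (Plet1, Ear1, Krt79, Siglecf, Cidec; 1360, 1866, 426 and 93 cells). All kinds were chosen on the same counts, so genes that go with the rule genes had to differ, and the rule genes are left out of every count. In the last 3 comparisons tissue and cell kind cannot be told apart, and all 4 share Kupffer samples.

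Against liver monocytes, Kupffer cells were higher in 19 of 19 tested other Kupffer cell genes, 10 of 16 transcription factors, 9 of 15 iron, 9 of 13 complement, 7 of 10 scavenger and 9 of 14 lipid genes and lower in 6 of 14 chemokines. The edgeR test with sample as a block called 1628 of 6648 genes (24.5%), 844 higher (12.7%) and 784 lower (11.8%) in Kupffer cells. The kinds did not overlap for 10.7% of all genes on the higher and 5.99% on the lower side. Of the 20 other Kupffer cell genes, 19 were tested and all 19 were higher, with a median log2 difference of 5.60 where that over all genes was 0.03. Without positive replicate 2 the count over all genes was 1054, and without the replicate 2 samples 877. It was 1910 with at least 4 rule genes and 1581 without negative replicate 2, and all 19 other Kupffer cell genes were higher in both. Transcription factors were then higher for 9 of 15 and 10 of 16, iron genes for 10 of 14 and 8 of 15, complement genes for 9 and 8 of 13, scavenger receptors for 8 and 7 of 10 and LXR and lipid genes for 10 of 13 and 9 of 14. Without the replicate 2 samples the higher genes were 19 of 19, 9 of 16, 7 of 15, 8 of 13, 6 of 10 and 8 of 13 in the same order of lists.

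C6 stood at 286, 478, 431, 1076 and 988 CPM in Kupffer cells and at 5.46, 0, 0.886, 0 and 0 in monocytes of the same samples (log2 difference 8.02, SE 0.68, edgeR adjusted p = 9.19e-06). Cxcl13 was at 314, 925, 1744, 828.7 and 494 against 0.949, 0.528, 0.443, 21.9 and 0 (9.37, SE 0.64, adjusted p = 1.74e-06). Both were higher in 5 of 5 samples, with no overlap. Pcolce2, an enhancer of collagen processing, had 538 UMIs in Kupffer cells and 0 in monocytes, at least 295-fold higher with a floor of 3 counts over the group. Slc16a9 had 1146 UMIs against 2, a ratio of 943 of the pooled CPM (95% exact counting interval 260.4 to 7795). Clec1b, a C-type lectin receptor, was at 210.3 to 457 CPM against 0 to 14.6, and Kcna2, a potassium channel, at 34.5 to 158 against 0 to 7.29. Tspan15, Ccdc148 and Ptprm, with 720, 629 and 501 UMIs against 1, 2 and 3, completed the 8 higher genes with the largest difference.

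Of 16 transcription factors tied to macrophage identity, 10 were higher in Kupffer cells and 1, Rbpj (the mediator of Notch signals), was lower. Nr1h3 was at 119, 650.2, 264, 589.8 and 805 CPM against 6.40, 11.1, 6.20, 14.6 and 33.9 (log2 difference 4.90, SE 0.28, edgeR adjusted p = 1.11e-06). Spic, which drives the red pulp and iron-recycling programme, was at 44.0, 81.3, 144, 121 and 89.5 against 3.08, 0, 0.886, 0 and 0.942 (5.78, SE 0.59, adjusted p = 3.35e-05). Neither gene overlapped between the kinds. Id3, a repressor of E proteins needed by Kupffer cells, was higher by 2.45 (SE 0.41), Rxra, the partner of LXR, by 2.75 (SE 0.29), Maf by 1.60 (SE 0.24) and Id1 by 1.04 (SE 0.28).

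Iron and haem genes were higher for 9 of 15 tested and lower for 0. Slc40a1 was at 408, 1565, 2449.9, 2156 and 2441 CPM in Kupffer cells and at 8.54, 6.07, 31.9, 21.9 and 1.88 in monocytes (log2 difference 6.94, SE 0.52, edgeR adjusted p = 3.87e-06). Every Kupffer sample was above every monocyte sample. Cd163 differed by 5.26 (SE 0.41) and Blvrb, which reduces biliverdin, by 1.72 (SE 0.25). Hmox1, which opens the haem ring, was at 901, 325, 1424, 4742 and 443 against 392, 121, 186, 2188 and 341. It was higher in 5 of 5 samples with overlapping ranges (1.27, SE 0.32, edgeR adjusted p = 0.0126). It did not pass without the replicate 2 samples (edgeR adjusted p = 0.0809) or without sample as a block. Its level in both kinds was highest in positive replicate 2.

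Complement genes were higher for 9 of 13 and lower for 1. C1qa was at 1752, 3404, 3792, 5599 and 4183 CPM against 93.7, 73.3, 487, 452 and 168 (log2 difference 4.06, SE 0.34, edgeR adjusted p = 8.5e-06). Cfp, which encodes properdin and stabilises the alternative pathway convertase, was at 571, 925, 1172, 1372 and 1495 against 180.5, 169, 138, 299 and 141 (2.43, SE 0.26). C4b differed by 4.24 (SE 0.45), although reads of its near-identical copy C4a could be split between them. The exception was C3, the central component of the cascade, at 119, 40.6, 79.1, 37.0 and 55.4 against 188, 237, 231, 146 and 127 (-1.60, SE 0.27, adjusted p = 0.00146). C3 was lower in Kupffer cells of all 5 samples.

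Lipid and uptake genes followed the same direction. LXR and lipid genes were higher for 9 of 14 and lower for 0: Apoc1 by 4.50 (SE 0.45), Pltp, the phospholipid transfer protein, by 4.67 (SE 0.32), the cholesterol exporter Abca1 by 2.95 (SE 0.41) and Apoe by 1.5 (SE 0.27) on the log2 scale. Scavenger receptors were higher for 7 of 10 and lower for 0, among them Mrc1 at 414 to 1244 CPM against 25.3 to 343. Efferocytosis genes, which serve the uptake of dying cells, were higher for 4 of 7: the receptor kinases Axl (3.42, SE 0.24) and Mertk (3.58, SE 0.38), Itgb5 and Pros1. Lysosomal genes were higher for 5 of 16, led by Ctsb, a cysteine protease. The lysosomal count was 8 with at least 4 rule genes and 5 without negative replicate 2. Pros1 was not called without any 1 of the positive samples or without negative replicate 3. Lpl was not called without the replicate 2 samples or without sample as a block.

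Of 14 chemokines, 6 were lower in Kupffer cells than in monocytes and 2, Cxcl13 and Cxcl16, were higher. The lower chemokines were 8 with at least 4 rule genes and 7 without negative replicate 2, but 5 without the replicate 2 samples and 2 without sample as a block, where Ccl2 and Ccl9 were not called. Ccl9 was at 462, 498, 164, 1281 and 567 CPM against 1024, 833, 512, 1881 and 1425, lower in 5 of 5 samples (log2 difference -1.22, SE 0.21, edgeR adjusted p = 0.00151). Ccl2 was lower in 4 of 5 samples (-3.18, SE 0.75, adjusted p = 0.00974), the exception being negative replicate 2, and did not pass without positive replicate 2 (adjusted p = 0.0566). Among the lower genes with the largest difference were Tppp3, Emp1, S100a4, S100a10, Lgals1, AI839979 and Lmna. S100a4, a calcium-binding protein of motile cells, was at 649.9, 122, 158, 58.8 and 128 CPM against 1125 to 2492, with its highest Kupffer level in negative replicate 2. Of 10 lipid-associated macrophage genes, Lgals3, Fabp5, Gpnmb and Spp1 were lower and Apoe, Lpl and Mmp12 higher. The lower ones were 6 with at least 4 rule genes and 4 without negative replicate 2, and Spp1 and Mmp12 were not called without negative replicate 3 or without positive replicate 2 or 3.

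Antigen presentation and Fc receptor genes were mixed. Of 9 MHC class II genes, 5 were higher, among them Cd74 at 1401 to 3029.7 CPM against 459 to 1216 (log2 difference 1.29, SE 0.24). That count was 2 with at least 4 rule genes, 1 without negative replicate 2 and 1 without the replicate 2 samples, where Cd74 itself was not called (edgeR adjusted p = 0.065). Of 6 Fc gamma receptor genes, Fcgr4 and Fcgrt were higher and Fcgr1 and Fcgr2b lower. Fcgr4, an activating receptor, was at 361 to 996 CPM against 80.6 to 181, while Fcgr2b, the inhibitory receptor, was at 261, 0, 29.3, 44.9 and 12.8 against 313, 159, 187, 416 and 157 (-2.52, SE 0.50, adjusted p = 0.00384; 0.0627 without sample as a block). The only Kupffer sample with Fcgr2b in the monocyte range was negative replicate 2. Interferon-stimulated genes were higher for 3 of 8 and lower for 1, Toll-like receptor genes higher for 1 of 9, and inhibitory ligands lower for 1 of 7 (Vsir). Over all genes 12.7% were higher and 11.8% lower.

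Cell cycle genes were lower for 1 of 8 (Hmgb2) and immediate early and heat shock genes for 1 of 15 (Atf3), near the 11.8% of all genes that were lower. With at least 4 rule genes these counts were 6 and 8, and without negative replicate 2 they were 5 and 2. Over all genes, 1005 of 6330 and 775 of 6779 were lower in those fits. Cytokine and feedback genes were higher for 2 of 11, Il18bp and Acod1, and lower for 2, among them Socs3. Id1, Fcgr1, Socs3 and Vsir were not called without positive replicate 2. Il18bp was at 160.1, 447, 460.1, 466.3 and 307 CPM against 2.83 to 16.4 (log2 difference 5.64, SE 0.32). Markers of other cell types moved with this comparison. Neutrophil markers were higher in Kupffer cells for 4 of 8 and lower for 1, and B cell markers higher for 3 of 4 (Igkc, Ighm and Cd79b). Sinusoidal endothelial markers were higher for 2 of 2 (Stab2 by 5.67 and Pecam1 by 3.46 on the log2 scale). Trf, which is in both the hepatocyte and the iron list, was higher. The platelet marker Pf4 was lower (-2.96) and so was the monocyte marker Plac8 (-1.10). Retnlg, one of them, was at 10043 CPM in Kupffer cells of negative replicate 2 and at 224 to 1955 in the others. Retnlg was not called without negative replicate 2 or without any 1 of the positive samples. The part of these markers in the result was not tested.

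**Figure D4:**
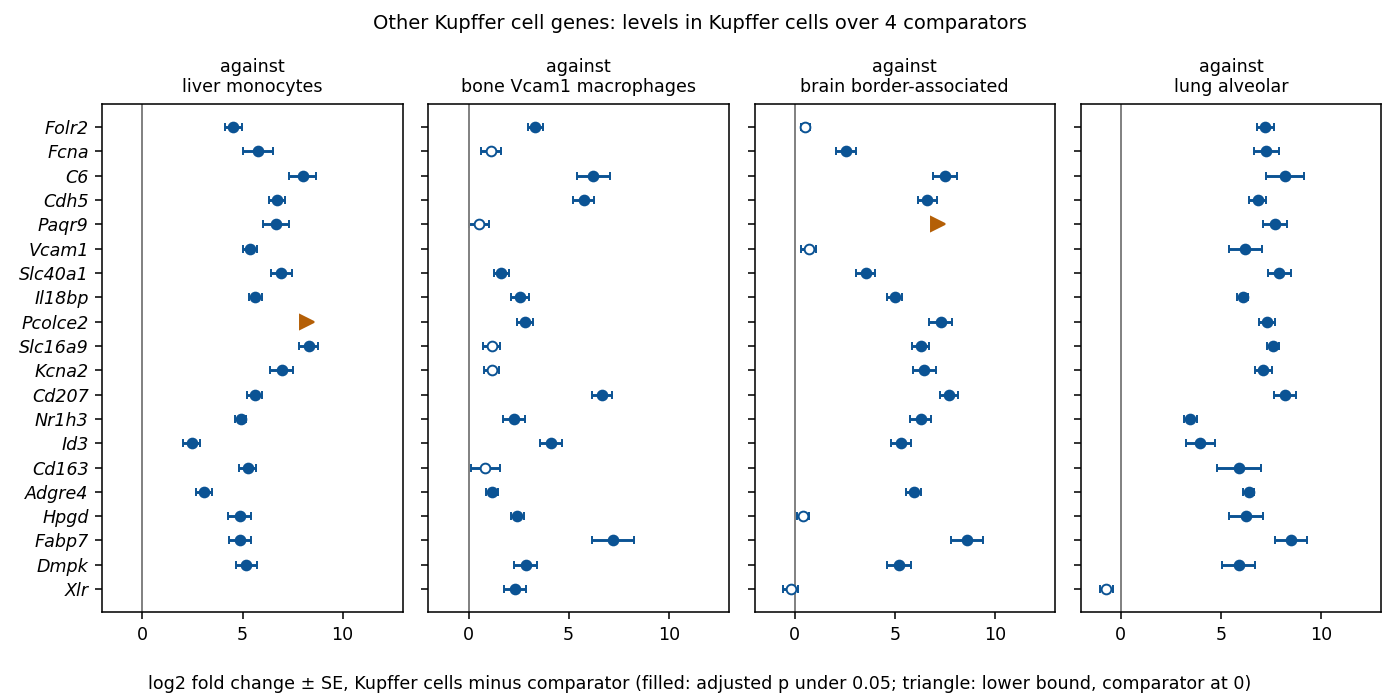
Log2 fold change ± SE, Kupffer cells minus comparator (x axis), of the 20 other Kupffer cell genes (y axis) in 4 comparisons; filled points have an edgeR adjusted p under 0.05, open points do not, and triangles are lower bounds where the comparator had 0 UMIs. The median is 5.60 against monocytes, 2.44 against bone, 5.94 against brain and 6.98 against lung macrophages.

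Against bone macrophages, Kupffer cells were higher in most of their own genes and lower in cell cycle genes, and 2 of 16 iron genes passed. This comparison had the fewest calls of the 4 and also the fewest comparator samples, 2. The edgeR test called 596 of 9964 genes (5.98%), 223 higher (2.24%) and 373 lower (3.74%) in Kupffer cells. With only 3 and 2 samples, 14.6% of all genes were higher and 17.2% lower without overlap. The count was 143 without liver positive replicate 2, 267 without liver positive replicate 3 and 331 without bone positive replicate 1. With the replicate number as a block it was 1265, 505 higher and 760 lower, with 17 of 19 other Kupffer cell genes, 5 of 16 iron genes, 7 of 13 complement genes higher and 12 of 12 cell cycle genes lower. Cd163, Fcna and Slc16a9 were then called (1.65, 1.15 and 1.37). Liver positive replicate 3 had no bone partner in the blocked fit. Its differences therefore rested on replicates 1 and 2 alone, with little left to estimate the spread. A fit without either bone sample leaves 1 bone sample, whose spread is taken from the Kupffer samples. Of the other Kupffer cell genes 14 of 19 were higher, with a median log2 difference of 2.44. In the reported fit Paqr9, Slc16a9, Kcna2, Fcna and Cd163 were not called. Without the replicate 2 samples Slc16a9, Kcna2, Fcna and Cd163 were (edgeR adjusted p = 0.00969, 0.0197, 0.0309 and 0.00843). Slc16a9 and Fcna were also called without bone positive replicate 2 (adjusted p = 0.0213 and 0.0485), and Slc16a9 with cells that met both rules left out (0.0474). Paqr9 was at 46.9, 133 and 209 CPM in Kupffer cells and at 57.4 and 124 in bone macrophages (0.51, SE 0.50, adjusted p = 0.708; -0.020 with the block), within the same range. A missed threshold does not show that the levels were equal.

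Of the genes that stood out in Kupffer cells against bone, C6 was at 431, 1076 and 988 CPM against 2.27 and 19.8 (log2 difference 6.24, SE 0.80, edgeR adjusted p = 0.00412). Fabp7 was at 410.3, 1204 and 2309 against 1.14 and 16.2 (7.22, SE 1.05, adjusted p = 0.00512). Cd207 (langerin, a lectin) was at 126, 177 and 170.4 against 2.27 and 0.901 (6.65, SE 0.49, adjusted p = 0.000238). Apoc1 differed by 5.81 (SE 0.63), Cdh5, an adhesion gene of endothelium also found in Kupffer cells, by 5.76 (SE 0.52) and Tspan15 by 6.25 (SE 0.46). None of these 6 overlapped. Adamdec1 had 603 UMIs against 2, a pooled ratio of 183 (95% exact interval 50.5 to 1516), and Ptgis, prostacyclin synthase, 257 against 2, a ratio of 78.1 (21.4 to 648).

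Of 16 iron and haem genes tested against bone, 2 were higher: Slc40a1 at 2449.9, 2156 and 2441 CPM against 561 and 969.8 (log2 difference 1.64, SE 0.37, edgeR adjusted p = 0.0276) and Hpx (haemopexin) at 8.52 to 9.71 against 0 and 0.451. Spic was at 144, 121 and 89.5 against 107 and 441 (-1.15, SE 0.48, adjusted p = 0.232), and Hmox1 at 1424, 4742 and 443 against 901 and 4909 (-0.33, SE 0.85, adjusted p = 0.929). The ranges of both overlapped. Of 16 transcription factors, Id3, Irf7, Smad6, Id1, Nr1h3 and Rxra were higher, Id3 at 252, 675 and 737 CPM against 38.1 and 26.1 (4.10, SE 0.55). Of 13 complement genes, 6 were higher, among them C4b (4.74, SE 0.54) and Cfb, factor B, (3.62, SE 0.47), and C3 was again lower, at 79.1, 37.0 and 55.4 against 271 and 119.9 (-1.89, SE 0.46, adjusted p = 0.0376). Slc40a1, Nr1h3, Rxra, Id1 and C3 each lost the call without liver positive replicate 2, without liver positive replicate 3 and without bone positive replicate 1, at edgeR adjusted p values from 0.0552 (Id1) to 0.273 (Rxra). Smad6 lost it without liver positive replicate 2, and Hpx without either bone sample. Spic and Hmox1 turned to 0.080 and 1.23 without bone positive replicate 2, uncalled as before, and Spic was called lower without bone positive replicate 1 (-1.85, edgeR adjusted p = 0.0171).

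Of 12 cell cycle genes, 11 were lower in Kupffer cells than in bone macrophages, with a median log2 difference of -3.25. Lower levels of this list were not particular to the bone comparison. In the reported fit against lung alveolar macrophages 7 of 12 were lower, beside 15.3% of all genes. Top2a, a topoisomerase of dividing cells, was at 20.5, 4.52 and 8.52 CPM against 302 and 179 (-5.00, SE 0.59, edgeR adjusted p = 0.00215), and Mki67 at 49.8, 7.53 and 34.1 against 331 and 153. Among the lower genes with the largest difference were Fcnb and Ms4a3, which mark granulocyte precursors, at 0 to 2.93 against 193 and 97.8 and at 0 to 29.8 against 98.9 and 284. Histone genes Hist1h3c and Hist1h1b, which have near-identical copies, and Nusap1, Cenpf, Itgad and Ccr3 made up the rest. Ms4a3, Hist1h3c and Cenpf were not called without liver positive replicate 2, nor Mki67 without liver positive replicate 3. Of the 331 comparator cells of bone positive replicate 2, 66 also met the Kupffer rule, and leaving out cells that met both rules gave 772 calls. Liver markers were found beside these differences: 3 of 6 hepatocyte markers were higher in Kupffer cells (Alb, Fgb and Apoa2, with a list median of 4.24 on the log2 scale) and 2 of 7 sinusoidal endothelial markers (Pecam1 and Clec4g), while 1 of 6 monocyte markers was lower (F13a1). The part of the precursor and liver RNA in these results was not tested.

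Against brain border-associated macrophages, which lie in the meninges and around vessels, Kupffer cells were higher in the iron exporter Slc40a1 and in 7 of 12 LXR and lipid genes and lower in 8 of 14 chemokines and 9 of 15 immediate early and heat shock genes. The edgeR test called 955 of 5114 genes (18.7%), 461 higher (9.01%) and 494 lower (9.66%), and 16.4% and 10.6% of all genes were higher and lower without overlap. Without liver positive replicate 2 the count was 586, and without the replicate 2 samples 497. Of the other Kupffer cell genes 15 of 19 were higher, with a median log2 difference of 5.94, and Folr2, Vcam1, Hpgd and Xlr were not called. Folr2 was called with at least 4 rule genes (0.69, edgeR adjusted p = 0.0447) and Vcam1 without liver positive replicate 3 (1.09, adjusted p = 0.0383).

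Paqr9 had 859 UMIs in Kupffer cells and 0 in border-associated macrophages, at least 142-fold higher. C6 was at 431, 1076 and 988 CPM against 0, 5.29, 0 and 7.35 (log2 difference 7.51, SE 0.59, edgeR adjusted p = 6.93e-06). Fabp7 was at 410.3, 1204 and 2309 against 0, 4.84, 0 and 0 (8.60, SE 0.80, adjusted p = 1.66e-05). The kinds did not overlap for these genes. Cd207 had 1138 UMIs against 2, a pooled ratio of 282 (95% exact interval 77.8 to 2329). Adamdec1, Ptgis, Pcolce2 and Treml4 completed the higher genes, each with 1 to 3 UMIs in the brain cells.

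Nr1h3 was at 264, 589.8 and 805 CPM against 3.18, 8.81, 0 and 3.68 (log2 difference 6.29, SE 0.51, edgeR adjusted p = 7.77e-06), and 8 of 15 transcription factors were higher. Maf and Rbpj were lower, Maf at 985, 1061 and 924 against 2309 to 3335 (-1.51, SE 0.26). Slc40a1 was at 2449.9, 2156 and 2441 against 386, 169.5, 42.4 and 107 (3.54, SE 0.48), one of 5 higher iron genes among 12. Lipid genes split: 7 of 12 were higher, among them Apoc1 (5.04, SE 0.84) and the lipase Lpl (4.23, SE 0.81), and Apoe was lower at 11616, 16245 and 16166 against 32224 to 43404 (-1.46, SE 0.29, adjusted p = 0.00372). Complement split as well, with C6, Cfp and Cfb higher and 4 of 14 lower, among them C3ar1, C5ar1 and C1qb. C1qb was not called with the replicate block or without any 1 of 6 of the 7 samples, brain positive replicate 1 being the exception. C1qa was lower without overlap, at 3792, 5599 and 4183 against 5839 to 6076, but did not pass (-0.51, SE 0.26, adjusted p = 0.209).

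Of 14 chemokines, 8 were lower in Kupffer cells than in the brain cells and 2, Ccl6 and Cxcl16, higher. Ccl2 was at 17.6, 107 and 42.6 CPM against 218, 3195, 2358 and 1463 (log2 difference -5.04, SE 0.88, edgeR adjusted p = 0.0016), and Ccl7 was lower by 6.04 on the log2 scale (SE 0.97). Cxcl13, near absent from monocytes, was at 1744, 828.7 and 494 against 0, 2.64, 480.1 and 507 and was not called (2.11, SE 1.29, adjusted p = 0.299). It was called with the replicate block (5.71, SE 1.18, edgeR adjusted p = 0.000553) and with no filter on low counts (2.25, adjusted p = 0.0177). Brain positive replicate 4 thus lay within the Kupffer range and replicate 3 just under it. Of 15 immediate early and heat shock genes 9 were lower, Jun at 129, 439.7 and 707 against 1626 to 7317. Without the replicate 2 samples the lower chemokines were 6, the higher ones 0, and the lower stress genes 6. Ccl6, Cxcl16 and Cd209b were not called without liver positive replicate 2, nor C5ar1 without liver positive replicate 3. The 8 lower genes with the largest difference were Gpr34, Fcrls, Apod, Cd209b, Mgl2, Ccl8, Tmod1 and Tln2. Fcrls, an Fc receptor-like gene of brain macrophages and microglia, was at 11.7, 0.335 and 0 against 221 to 493.1, and Trem2, a lipid receptor, at 93.8, 122 and 89.5 against 339.5 to 639. Among genes listed as markers of other cell types, Plac8 (1 of 3 monocyte markers), Mmp8 and Retnlg (2 of 7 neutrophil markers) and Pecam1 were higher in Kupffer cells. Pf4 and Bmp2 were lower. Whether the RNA of these genes came from other cell types or from the macrophages themselves was not tested, nor was their part in the result.

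Lung alveolar macrophages, which clear surfactant, differed from Kupffer cells in the most genes. The edgeR test called 3028 of 10330 (29.3%), 1450 higher (14%) and 1578 lower (15.3%) in Kupffer cells, and 1723 without the replicate 2 samples. Of all genes 18.1% were higher and 18.2% lower without overlap. Of the other Kupffer cell genes 19 of 20 were higher, with a median log2 difference of 6.98, and Xlr was not called. Slc40a1 was at 2449.9, 2156 and 2441 CPM against 4.01, 19.4, 6.88 and 2.27 (7.91, SE 0.56, edgeR adjusted p = 2.53e-06). Cxcl13 was at 1744, 828.7 and 494 against 0.321, 2.04, 0 and 0 (9.88, SE 0.73, adjusted p = 3.09e-06). Neither overlapped, and in the lung the highest level of both was that of replicate 2. C6, Fabp7, Cd207, Tspan15, Adamdec1 and Chp2 were the other higher genes with the largest difference, Chp2 with 3 UMIs in the lung cells.

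The complement difference was larger here than in the 3 other comparisons by the list median, at 5.00 on the log2 scale, with 11 of 14 higher and C5ar1 lower; the medians were not tested against each other. C1qa was at 3792, 5599 and 4183 CPM against 27.4, 54.4, 8.94 and 17.0 (7.26, SE 0.55, edgeR adjusted p = 3.3e-06), and C1qb and C1qc followed by 6.62 (SE 0.48) and 7.31 (SE 0.53). Of 16 transcription factors 11 were higher and 0 lower: Maf was at 985, 1061 and 924 against 8.94 to 14.8 (6.22, SE 0.24). Nr1h3 differed by 3.47 (SE 0.33). Interferon-stimulated genes were higher for 10 of 12, with a median of 3.68, among them Irf7 (5.54, SE 0.36) and Rsad2 (4.90, SE 0.41), while Isg15 was not called (0.89, SE 0.49, adjusted p = 0.206) unless liver positive replicate 2 or the replicate 2 samples were left out (1.68 and 1.59, adjusted p = 0.0312 and 0.0490).

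Lipid genes took opposite directions against the lung. Apoe was at 11616, 16245 and 16166 CPM against 227, 556, 145 and 44.3 (log2 difference 5.85, SE 0.67, edgeR adjusted p = 6.31e-05), and Apoc1, Nr1h3, Scd2, Pltp and Abca1 were higher too. The cholesterol exporter Abcg1 was at 117, 269.6 and 196 against 1091 to 1496 (-2.75, SE 0.29), and Fabp4, Lpl and Lpcat3 were also lower. Iron genes were higher for 9 of 16, and Fth1, the ferritin heavy chain, and Blvra lower. Of scavenger receptors 6 of 10 were higher, Msr1 at 352, 873 and 545 against 12.5 to 36.0, and Cd36 and Mrc1 lower. The lower genes with the largest difference were Wfdc10, with 0 UMIs against 1499, at least 93.9-fold lower, and Phlda3, Sema3e, Gal, Olr1, Fabp1, Cpne5 and Kcnn3. Olr1, a receptor for oxidised lipoprotein, was at 2.85 to 12.8 CPM against 227 to 432.

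Inhibitory ligands were split against lung, with 5 of 10 higher (among them Pirb and Lgals9) and 4 lower (Havcr2, Pdcd1lg2, Sirpa and Cd274). Cd274, which encodes PD-L1, was at 2.93, 62.6 and 25.6 CPM in Kupffer cells against 103 to 181 (log2 difference -1.79, SE 0.46, edgeR adjusted p = 0.0124). Fc gamma receptor genes were higher for 3 of 6, and Fcgr2b was lower, as it was in the reported fit of each of the other 3 comparisons. Fcgr4 was higher in the reported fit of all 4. Of the lung comparator cells of replicate 2, 148 of 1866 also met the Kupffer rule, and leaving out cells that met both rules gave 3038 calls against lung and 954 against brain. Mrc1 lost the call without 6 and Fcgr2b without 5 of the 7 samples in turn, at edgeR adjusted p values of up to 0.148 and 0.0900. C5ar1, Cd274 and Lpl lost it without liver positive replicate 3, and Pdcd1lg2 and the erythroid marker Hba-a1 without liver positive replicate 2. Other cell markers moved with the lung comparison: 4 of 6 hepatocyte markers were higher in Kupffer cells (Fgb, Apoa2, Apoa1 and Alb) and Fabp1 lower, 2 of 3 sinusoidal endothelial and 3 of 3 erythroid markers were higher, and 3 of 3 epithelial markers were lower. Plac8, Ltf and Cd79b, each 1 of 6, 8 and 6 monocyte, neutrophil and B cell markers, were higher too. Fabp1 was at 230 to 713 CPM in the lung samples. Whether the RNA of the lower markers came from the alveolar macrophages themselves was not tested. The part of these markers in the result was not tested.

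**Figure D5:**
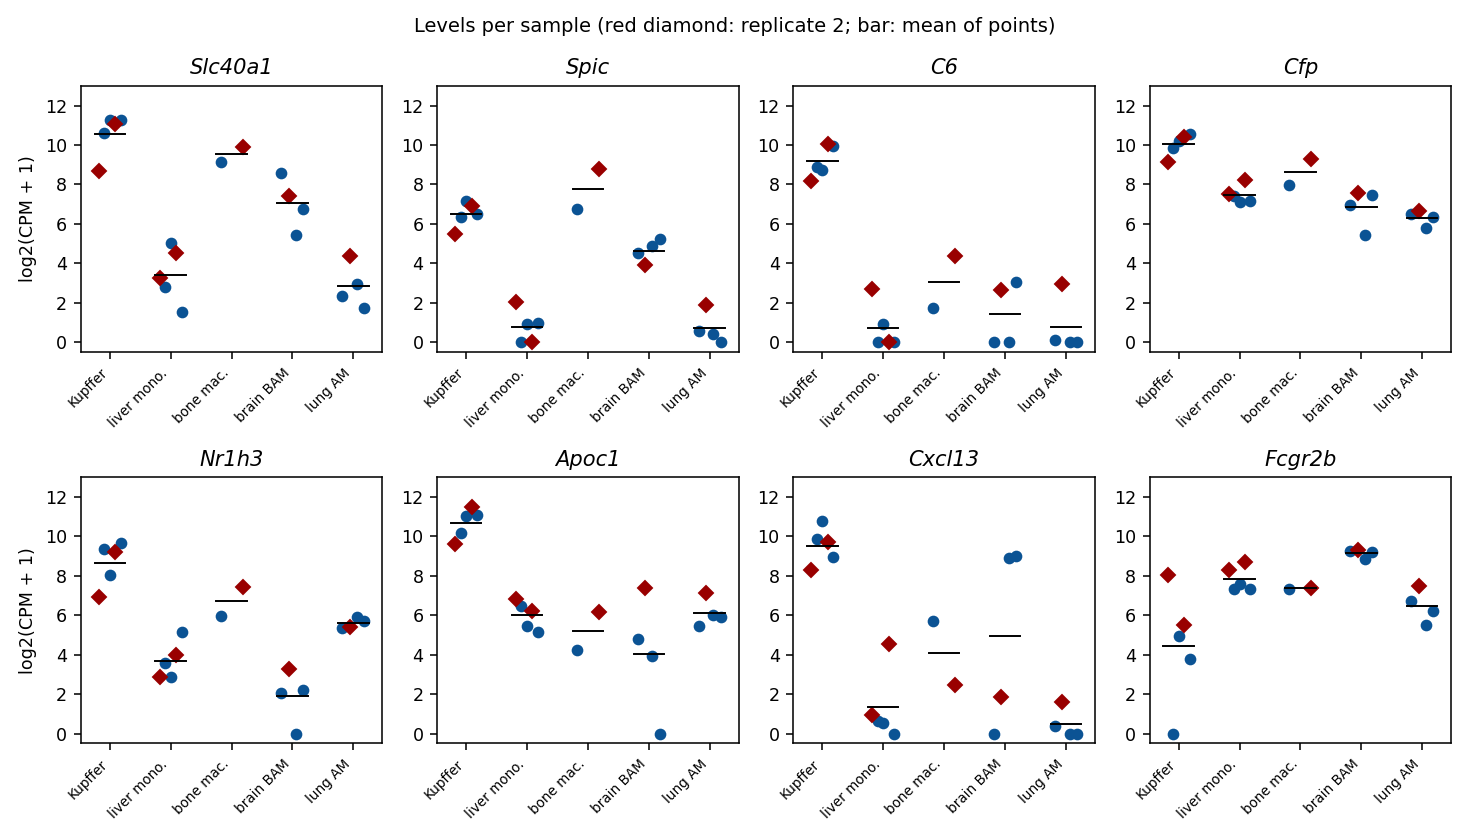
Levels as log2(CPM + 1) (y axis) of 8 genes in Kupffer cells of 5 liver samples and in the 4 comparator kinds (x axis); each point is 1 sample, red diamonds are replicate 2 and bars are the mean of the points. By the mean, Slc40a1 and Apoc1 are highest in Kupffer cells and Spic in bone macrophages, and Cxcl13 reaches the Kupffer range in 2 brain samples.

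Set side by side are the differences of 4 genes with values in every kind, picked as examples. They do not measure how far a kind as a whole stood from Kupffer cells. The monocyte values come from 5 Kupffer samples with sample as a block, the others from positive replicates 1, 2 and 3 only. The log2 difference of Slc40a1 was 6.94 against monocytes, 1.64 against bone, 3.54 against brain and 7.91 against lung. That of Nr1h3 was 4.90, 2.28, 6.29 and 3.47, and that of Apoc1 4.50, 5.81, 5.04 and 4.92. C6 stood at 8.02, 6.24, 7.51 and 8.21. Apoc1 and C6 in Kupffer cells were thus far above all 4 kinds, while bone macrophages came nearest to the Kupffer level of Slc40a1 and Nr1h3. The bone calls of these last genes were each lost without any 1 of 3 single samples, as given above. The comparisons share the Kupffer samples, so these values are not independent of each other.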

How the data were processed

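Single-cell RNA-seq was measured in 33 mouse samples, of which 8 liver samples and 24 other intracardiac samples were used here. Per the file headers, the authors deposited raw UMI counts per gene and cell barcode, written by cellranger 6.1.2 for the intracardiac and 7.1.0 for the pooled bone matrix. The submitters' processing notes name mm10 and Seurat; whether intronic reads were counted is not given in the sources used here. Cells were kept with at least 500 UMIs, 200 genes and at most 15% mitochondrial UMIs. No doublets were removed, and leaving out the top 5% of Scrublet scores per sample (scanpy 1.11.5) was an alternative. Counts were summed per sample and cell kind where at least 10 cells were present and tested with edgeR 4.0.16 (filterByExpr, TMM, quasi-likelihood, Benjamini-Hochberg adjustment over all genes tested, threshold 0.05). DESeq2 1.42.0 was an alternative. Samples with the same replicate number may share a pool (different tags, no shared barcodes), though no label says so, and fits with that number as a block were alternatives. Same-number samples correlated at 0.037 to 0.308 in their deviations from group means and different numbers at -0.286 to 0.095; centring groups of 2 samples fixes part of the negative values. The procedure was tested on simulated data. CPM are counts scaled to a total of 1000000 UMIs over the summed cells. Shares were compared by exact permutation. Intervals and zero limits (3 counts) cover counting error only. The labels do not say that replicates were separate animals, so p-values measure the spread between samples. Genes named were the 8 higher and 8 lower with the largest difference among non-overlapping genes past the threshold with at least 50 CPM, plus list members. The members and lists were chosen with earlier results of these data known. The alternatives with at least 2 UMIs per rule gene and without the replicate 2 samples were added after seeing the data. Some genes that the rule names are not reported here.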

Additional observations from a re-analysis of the deposited data

Results flagged for a closer look

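Single samples stood apart in 19 of the 65 groups of 4 or 5 samples examined by Dixon's criterion, which chance meets in about 1 of 20 groups. The share of Kupffer cells was 77.8% in biotin positive liver replicate 2, far above the other 3 positive samples. In Kupffer cells, S100a4 (649.9 CPM) was highest in negative replicate 2, and Lmna (37.3 CPM) in positive replicate 2.

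The other samples that stood apart were comparator samples. Among liver monocytes, Cxcl13 (21.9 CPM) and Kcna2 (7.29) were highest in positive replicate 2 (16 cells), and Tspan15 (0.237) and C6 (5.46) in negative replicate 2. Among brain border-associated macrophages, 6 genes were found in replicate 2 alone: Fabp7 (4.84 CPM), Treml4 (1.32), Cd207 (0.881), and Adamdec1, Ptgis and Pcolce2 (0.440 each). The last of these rest on 1 UMI each, and replicate 2 had the most UMIs of the brain samples (2270766). Among lung alveolar macrophages, C6 (6.77 CPM), Cxcl13 (2.04), Cd207 (1.02), Adamdec1 (0.859) and Chp2 (0.161) were highest in replicate 2, and Kcnn3 (136) was highest in replicate 3.

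Cells meeting the Kupffer rule were also present outside liver in the replicate 2 samples, above the limit that a count of 0 allows. They were 1.67% of kept cells in negative and 7.93% in positive bone, 0.824% in negative and 1.63% in positive brain, and 0.953% in negative and 7.29% in positive lung. The cause was not tested.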

How the results depend on the processing

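The share difference kept its direction in the alternatives run, and so did each named gene that was called. Of genes not called in the reported fits, C1qa between the sorts was -0.17 with at least 4 rule genes and -0.23 with 2 UMIs per rule gene. Against bone, Hmox1 was 0.15 with at least 5 cells, 0.32 with the block and -1.55 to 1.23 with 1 sample left out, Cd163 was -0.039 thinned, Paqr9 -0.31 thinned and -0.020 with the block, and Spic -1.85 to 0.080 with 1 sample left out (called at -1.85) and 0.063 without the replicate 2 samples. Xlr against brain was 0.030 with the block and -0.42 to 0.079 with 1 sample left out. For genes within Kupffer cells between the sorts, where 0 were called, there were 189 calls with no low-count filter, 1 without the top Scrublet scores, 49 with the replicate block, 0 to 78 with 1 sample left out and 41 without the replicate 2 samples. Against monocytes (1628 calls) there were 459 with cells thinned to 1000 UMIs, 1054 to 1581 with 1 sample left out and 877 without the replicate 2 samples, of which 374, 1021 (at 1054) and 763 were called in the reported fit. Against bone (596) there were 985 with no filter, 140 thinned, 1265 with the replicate block and 143 to 763 with 1 sample left out. Against brain (955) there were 1684 with no filter, 347 thinned, 586 to 1151 with 1 sample left out and 497 without the replicate 2 samples. Against lung (3028) there were 1585 thinned, 1723 without the replicate 2 samples and 2052 to 3152 with 1 sample left out. Thinned cells have fewer UMIs, and left-out samples lower the number of samples. For the rest the cause was not tested. The replicate block moved no other count of calls by over 1.5 times (brain 1218, lung 2956, monocytes 1906 without the sample block). The share difference of 22.1 points ranged from 3.78 to 29.7 with 1 sample left out (exact permutation p = 0.0571 at 29.7), was 4.15 without the replicate 2 samples and was 20.3 to 21.9 in the other share settings (p = 0.371 at 21.9, with at least 2 rule genes). Paired by replicate number, an exact sign permutation of the shares gave p = 0.25, with 0.125 the smallest possible. With cell numbers in edgeR the difference was 4.71 on the log2 scale (unadjusted p = 0.0412, adjusted p = 0.124). Of the named genes, 13 of 39 against bone, 9 of 43 against brain, 15 of 63 against monocytes and 7 of 55 against lung lost the call in at least 1 alternative. Genes not called gained one 11 times against bone, 5 against brain, 2 against lung and 4 between the sorts, counting each gene in each alternative. Leaving out cells with other lineage markers could not be fitted, since 40 liver cells remained.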

Other observations

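Other lists were described only in part above. Of 16 lysosomal genes, 7 were higher and 2 (Ctsd and Cd63) lower in Kupffer cells than in lung alveolar macrophages by the edgeR test with Benjamini-Hochberg adjustment, beside 14% and 15.3% of all genes. Ctsb, a cysteine protease, was at 2992, 7355 and 7220.4 CPM in Kupffer cells of positive replicates 1, 2 and 3 against 894 to 1012 in the lung. Ctsd, an aspartic protease, took the other direction, at 1459, 2056 and 1985 against 3799 to 6495 (log2 difference -1.60, SE 0.25). The same list held 2 higher and 2 lower genes against brain, beside 9.01% and 9.66% of all genes. It held 0 higher and 1 lower (Cd63) against bone, beside 2.24% and 3.74%. Lipid-associated macrophage genes were lower for 6 of 11 against lung, among them Gpnmb at 5.86, 33.5 and 34.1 against 198 to 269 and Ctsk, a collagen-cleaving cathepsin, at 2.93, 8.87 and 0 against 214 to 336.

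Toll-like receptor genes were lower for 3 of 8 against brain (Tlr7, Ly96 and Tlr2, none of them called without liver positive replicate 2), beside 9.66% of all genes. They were higher for 5 of 11 and lower for 2 against lung, beside 14% and 15.3%, and higher for 1 of 10 against bone, beside 2.24%. That gene was Tlr3, a sensor of double-stranded RNA, at 49.8, 22.1 and 21.3 CPM in Kupffer cells against 2.27 and 8.11 in bone macrophages (log2 difference 2.48, SE 0.59, edgeR adjusted p = 0.0355), and not called without each of the 3 liver samples in turn or without bone positive replicate 1. Tlr3 was also higher against lung. Hepatocyte markers were higher in Kupffer cells for 3 of 6 against bone (median 4.24 on the log2 scale) and 4 of 6 against lung (median 4.67). Erythroid markers were higher for 3 of 3 against lung (median 4.04) and for 0 of 4 against bone (median -1.55). For example, Alb was at 82.1, 28.5 and 8.52 in Kupffer cells against 1.14 and 0.451 in bone, and Hba-a1, which shares reads with Hba-a2, at 2.93, 219.8 and 12.8 against 0 to 9.67 in lung. Their part in the other differences was not tested.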
